A study of Mus musculus with 50 samples.

Results

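The clustered replication-dependent histone genes were examined in ATAC-seq profiles of neuronal nuclei, in which the number of fragments over a peak measures how accessible its chromatin is to a transposase. Protein-coding genes of the mouse genome (GRCm38) were taken by their systematic symbols for the linker histone H1 (H1f1 to H1f6) and the core histones H2A (H2ac), H2B (H2bc), H3 (H3c) and H4 (H4c). In all, 63 genes matched, 53 on chromosome 13 between positions 21715711 and 23934913 (2219.2 kb) and 10 on chromosome 3 between positions 96219885 and 96270192 (50.3 kb). Of the 144465 merged peaks of the study, 39 lay within 2 kb of these genes, 33 in the chromosome 13 cluster and 6 in the chromosome 3 cluster. The other 201 peaks of the same 1 Mb bins served as control peaks, 111 on chromosome 13 and 90 on chromosome 3. A peak was named after the nearest histone gene, and several peaks held more than 1 gene. Only H2ac1 and H2bc1, both on chromosome 13, had no peak.

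Replication-dependent histone genes encode the proteins around which newly copied DNA is wrapped, and dividing cells transcribe them mainly while DNA is replicated. The genes lie in clusters without introns, their mRNAs end in a stem-loop in place of a poly(A) tail, and the factor Npat gathers at the clusters in histone locus bodies. Neurons no longer divide and depend largely on replication-independent variants, encoded elsewhere in the genome, to replace histones. H2A and H2B form a dimer in the nucleosome, H3 and H4 form the tetramer at its centre, and H1 binds the DNA between nucleosomes.

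The promoter stretches below belong to the peaks described most closely in the text, with at most 1 gene per family and cluster. They are the 150 bases before the annotated start site, read in the direction of the gene (RefSeq, GRCm38.p6). Capitals mark the CCAAT box, searched by those letters. They also mark the TATA box, searched as TATAAA. An H1 box was searched as the letters AAACACA. The octamer was searched as ATTTGCAT. All were searched on both strands.
H1f1, chr13:23763518-23763667, forward strand: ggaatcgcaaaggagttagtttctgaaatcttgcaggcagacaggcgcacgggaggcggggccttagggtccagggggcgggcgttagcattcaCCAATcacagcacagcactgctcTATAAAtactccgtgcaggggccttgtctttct
H2ac8, chr13:23571221-23571370, reverse strand: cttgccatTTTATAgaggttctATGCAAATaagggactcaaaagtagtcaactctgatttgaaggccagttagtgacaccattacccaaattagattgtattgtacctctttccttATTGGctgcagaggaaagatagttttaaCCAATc
H3c4, chr13:23575613-23575762, forward strand: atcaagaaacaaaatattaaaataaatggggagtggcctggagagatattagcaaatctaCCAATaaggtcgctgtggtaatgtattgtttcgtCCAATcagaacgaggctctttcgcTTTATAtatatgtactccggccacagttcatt
H4c8, chr13:23530894-23531043, forward strand: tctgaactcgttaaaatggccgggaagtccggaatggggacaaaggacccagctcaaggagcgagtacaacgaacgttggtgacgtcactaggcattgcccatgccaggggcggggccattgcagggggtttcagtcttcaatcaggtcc
H2ac21, chr3:96219735-96219884, forward strand: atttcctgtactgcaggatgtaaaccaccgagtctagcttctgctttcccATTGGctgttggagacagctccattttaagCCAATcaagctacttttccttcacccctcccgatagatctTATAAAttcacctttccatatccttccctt
H2bc18, chr3:96269550-96269699, forward strand: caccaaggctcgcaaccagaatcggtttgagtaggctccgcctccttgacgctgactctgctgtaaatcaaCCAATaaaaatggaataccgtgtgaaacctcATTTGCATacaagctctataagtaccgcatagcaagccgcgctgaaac
H3c13, chr3:96268504-96268653, forward strand: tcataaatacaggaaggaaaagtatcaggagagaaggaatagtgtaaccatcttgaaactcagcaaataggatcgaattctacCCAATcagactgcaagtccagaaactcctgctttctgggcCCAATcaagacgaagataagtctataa

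Of the 58 histone genes with a promoter in the RefSeq table, 82.8% held a CCAAT box in these 150 bases, against 24.5% of all 32851 promoters. A TATA box was found in 39.7% of histone promoters and 7.57% of all promoters, an octamer in 15.5% and 0.998%, and an H1 box in 13.8% and 3.53%. The families differed in these letters. All 6 H1, all 17 H2A and all 14 H2B promoters held a CCAAT box, as did 8 of 10 H3 promoters and 3 of 11 H4 promoters. The octamer, which is bound by Pou2f1, was present in 5 of 14 H2B and 4 of 17 H2A promoters and in none of the other families. The H1 box was present in 5 of 6 H1 promoters. H4c8, whose peak was the most accessible of the chromosome 13 cluster per kb of peak width, held none of the 4 motifs. A motif is given here as letters found, and its absence says only that these letters are not in this stretch. An H2A and an H2B gene started in opposite directions within 164 to 281 bases of each other in 9 pairs, among them H2ac8 and H2bc8 (180 bases) and H2bc7 and H2ac7 (174 bases). The TATA box and the octamer in the H2ac8 stretch are read on the strand of H2bc8. For 50 of the 58 genes the start site lay inside a histone peak.

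The samples came from male C57BL/6JRj mice whose dams, bred by a single supplier, were randomly allocated to 5 rearing facilities (RF1 to RF5, RF1 and RF2 at the same institution). NeuN-positive nuclei were sorted from the ventral hippocampus of 1 brain side, frozen with hexane according to the labels. At time point TP2 mice were 14 weeks old and had moved to a single test laboratory, and at TP1 littermates were killed in their own RF at 8 weeks. Each RF contributed 5 libraries at each time point, 1 mouse each, 50 libraries in 10 groups. Each sorting batch held 1 library of every RF. Libraries of the 2 time points were amplified and sequenced apart, so that time point and batch cannot be told apart, and the time points were not tested against each other. The question asked within each time point was whether accessibility depended on the RF, and across them whether RF differences persisted.

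Libraries held 5111223 to 36401717 counts over all peaks at TP2 (median 26030443) and 33663505 to 77396321 at TP1 (median 44453692). Levels are given as CPM, counts scaled to a common library size, after scaling by the trimmed mean of M values. At TP2, RF1 replicates 3 and 5 and RF2 replicate 5 were known from earlier results of these data to lie nearest to libraries of another RF. Some TP2 counts on chromosome 13 are given both with and without them. Comparisons of RF2 and of RF3 with the other RFs, counts for single pairs of RFs and library ranges at TP2 are given with all libraries only. Peaks at 8 neuronal genes summed to 248 to 347 CPM in every group, against 15.8 to 29.8 CPM for 4 astrocyte genes. The sums were 24.8 to 34.5 CPM for 3 microglial genes and 23.1 to 36.3 CPM for 4 genes of the oligodendrocyte lineage. The only endothelial gene with a peak, Cldn5, had 0.5 to 2.3 CPM. These sums hold unlike numbers of peaks of unlike width, so their sizes cannot be compared directly. Mog, Pdgfra, Cx3cr1, Pecam1 and Flt1 had no peak at their start. In sorted bulk nuclei a smaller share of a cell type and less accessibility per nucleus cannot be told apart.

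Histone peaks were among the more accessible of all peaks in these neuronal nuclei, and their rank among peaks at gene ends was not computed. Divided by peak width, the mean level of 27 of 33 peaks on chromosome 13 and 3 of 6 on chromosome 3 reached the 90th percentile of all peaks. H4c8 (chr13:23530246-23532052) led with 24.2 CPM per kb, followed on chromosome 13 by H4c1 with 19.4 and H4c4 with 17.3 CPM per kb, all of them genes for the core histone H4. The H4c1 peak also held H3c1 and H1f1 and had the highest mean level of any histone peak, 64.3 CPM. On chromosome 3, H3c13 (chr3:96268112-96270385, with H2bc18) reached 19.5 CPM per kb, H4c14 18.1 and H2ac21 (with H2ac20 and H2bc21) 15.3 CPM per kb. The lowest levels on chromosome 13 were those of the middle of 3 peaks along the long annotated span of H2bc6 (1.80 CPM per kb), H4c18 (1.91) and H4c17 (2.74 CPM per kb). On chromosome 3 they were those of H3c15 (4.63 CPM per kb), H2ac19 (5.23) and H2ac18 (6.16). Of the 39 peaks, 33 had been called in every one of the 50 libraries. H2ac23 and H2ac24, H4c17 and H4c18, H2ac18 and H2ac19, and H3c14 and H3c15 are near-identical copies, for which counting unique alignments can lose fragments, and their levels are uncertain.

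Accessibility of histone peaks depended on the RF at both time points. At TP2, 29 of 33 peaks on chromosome 13 and 3 of 6 on chromosome 3 passed the test for any RF difference (edgeR quasi-likelihood F-test, Benjamini-Hochberg adjusted p below 0.01), against 30.8% of all peaks. At TP1, 32 of 33 and 5 of 6 passed, against 59.1% of all peaks. Among all peaks at gene ends the shares were 55.1% at TP2 and 80.3% at TP1. Among control peaks, 75 of 111 on chromosome 13 and 21 of 90 on chromosome 3 passed at TP2, and 92 of 111 and 45 of 90 at TP1. At both time points H3c15 and the middle H2bc6 peak did not pass, and at TP2 H2ac18, H2ac19, H4c17, H4c18 and H2bc4 did not either.

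The 2 clusters are described first by the summed level of their peaks. At TP2 the 33 peaks on chromosome 13 summed to 849 to 913 CPM (median 875) in RF5, 778 to 888 (792) in RF2, 716 to 791 (761) in RF3, 532 to 865 (629) in RF1 and 562 to 585 (581) in RF4. All RF4 libraries lay below all libraries of RF2, RF3 and RF5, and RF1 spread from below RF4 into the range of RF5. In RF1 the sums were 554, 532, 778, 629 and 865 CPM in replicates 1 to 5, the 2 highest being replicates 3 and 5. Replicate 3 was also the shallowest library of TP2, with 5111223 counts, and replicate 5 had 34133245. RF1 replicate 5 and RF2 replicate 5 (865 and 888 CPM) lay within the range of RF5 in this sum. Their ratios of histone to control sum were 0.829 and 0.830, against 0.813 to 0.834 in RF5. In the sample titles these 2 libraries are T25 and T4, while RF5 replicates 1 and 5 at TP2 are T26 and T27. At TP1 the titles S4 and S25 belong to RF5 replicates 1 and 5. Why RF1 replicate 5 and RF2 replicate 5 lay within the range of RF5 was not tested. At TP1 the order was another one, with 924 to 1188 CPM (median 997) in RF1, 677 to 787 (719) in RF2, 635 to 706 (697) in RF5, 578 to 604 (587) in RF3 and 446 to 545 (473) in RF4. RF1 stood above and RF4 below every other library, while RF2 and RF5 overlapped. The 6 peaks on chromosome 3 summed to 150 to 199 CPM at TP2, with RF3 lowest at 150 to 163 CPM (median 157). At TP1 they summed to 184 to 223 CPM (median 207) in RF1 and 133 to 145 (134) in RF4, and to 164 to 184 CPM in the other 3 RFs.

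**Figure D1:**
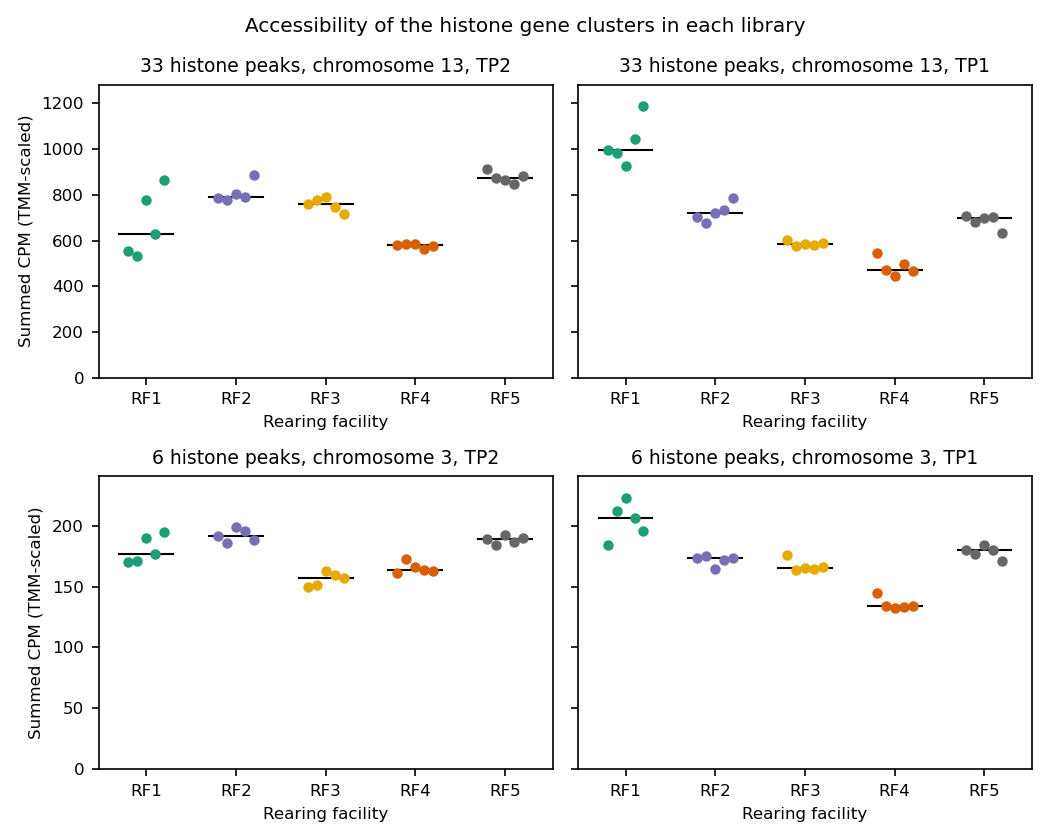
Summed level in CPM of the histone peaks of chromosome 13 (top) and chromosome 3 (bottom) in each library, by RF, with TP2 left and TP1 right; bars mark group medians. At TP1 the chromosome 13 sums of RF1 lay between 924 and 1188 CPM, above all others, and those of RF4 between 446 and 545 CPM, below all others.

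At TP2, in mice that had left their RF, histone peaks of chromosome 13 were lower in RF4 and higher in RF5 than in the other RFs. Each RF was compared with the mean of the other 4, and a peak with an adjusted p below 0.01 and a log2 fold change of at least 0.5 in either direction is called a differentially accessible region (DAR). In RF4, 8 of 33 peaks were DARs with lower accessibility, against 1.32% of all peaks, and 28 were lower at any fold change, against 4.96%. The median log2 fold change was -0.43 (range -0.71 to 0.007). Among the control peaks of chromosome 13, 29 of 111 were such DARs with a median of -0.41. The 8 DARs were H2bc13, H2bc14, H4c12, H3c11, H2ac22, H4c9, H2bc9 and H2bc7. Without RF1 replicates 3 and 5 and RF2 replicate 5, 2 of the 33 were DARs and 29 were lower at any fold change. When libraries that agreed within sampling noise were summed 16 were lower, and the count of DARs was 13 without replicate 2 of every RF and 3 without replicate 5. In RF5, H2ac22 was the only DAR with higher accessibility (0.217% of all peaks), and 26 of 33 were higher at any fold change, against 2.46% of all peaks, with a median log2 fold change of 0.35 (range -0.032 to 0.50). The control peaks had a median of 0.20. No peak was higher in RF5 at any fold change when libraries that agreed within sampling noise were summed, and 4 were DARs without the 3 libraries named above. Without replicate 1 of every RF 17 peaks were higher and without replicate 4 15 were, and H2ac22 was no DAR without replicate 1 or 2.

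Individual peaks at TP2 showed both differences. H2bc9, a gene for H2B whose peak also holds H3c7, had 35.6, 34.8, 34.9, 35.8 and 35.1 CPM in RF5, against 20.1 to 34.2 CPM in the other RFs. It was the only one of the 33 peaks whose RF5 libraries all lay above all others (0.0270% of all peaks), with a log2 fold change of 0.41 ± 0.054 (SE, edgeR with Benjamini-Hochberg adjusted p = 3.74e-06). In RF4 it had 22, 20.3, 22.4, 20.1 and 20.3 CPM, a log2 fold change of -0.52 ± 0.060 against the other RFs (adjusted p = 1.44e-08, edgeR). H2ac22, which shares its peak with H2bc22, had the largest values of either kind, 0.50 ± 0.081 in RF5 (adjusted p = 0.00011, edgeR) and -0.71 ± 0.093 in RF4 (adjusted p = 1.8e-06, edgeR). The groups did not overlap, with 19.3 to 24.3 CPM in RF5 and 9.88 to 11.8 CPM in RF4. H4c9, an H4 gene, had 20.1, 19.9, 21.4, 20.6 and 20 CPM in RF5, and 11.6, 11.5, 12.9, 12.5 and 11.8 CPM in RF4. H2ac12, with H2bc12, had 17, 16.8, 16.9, 17 and 17.6 CPM in RF5, and 11, 11.8, 12.1, 9.15 and 9.38 CPM in RF4. In both peaks every RF5 library exceeded every RF4 library, and how many of all peaks separate RF4 from RF5 was not counted.

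At TP2 the libraries labelled RF1 spread more widely than those of the other RFs, and replicates 3 and 5 are among the 3 libraries named above. H2ac11, an H2A gene that shares its peak with H2bc11, had 19, 18.5, 24.6, 22.9 and 28.9 CPM in RF1, while RF5 had 32.3, 32.1, 32.7, 32.1 and 33 CPM and RF4 20.3, 21.2, 20.4, 20.3 and 19.8 CPM. H4c8 had 32.0, 32.4, 40.9, 40.0 and 51.7 CPM in RF1, against 55.7, 54.9, 52.0, 50.4 and 52.1 CPM in RF5 and 33.1, 35, 33.2, 33.5 and 33.1 CPM in RF4. Replicate 5 of RF1 was thus the highest of its group in both peaks, and in H4c8 it lay within the range of RF5. H2ac11 was lower in RF1 than in the other RFs, with a log2 fold change of -0.28 ± 0.061 (edgeR, Benjamini-Hochberg adjusted p = 0.000687) and so was H4c8 with -0.22 ± 0.061 (adjusted p = 0.00857, edgeR). In all, 4 of 33 peaks were lower in RF1 at any fold change, against 2.79% of all peaks, with a median log2 fold change of -0.18. Without the 3 libraries named above 29 were lower, with a median of -0.38, and without replicate 5 of every RF 27 were, but 0 without replicate 1, 2 or 4. In RF2 the median was 0.20, and H4c8, H2bc9 and H4c3 were higher (0.692% of all peaks at any fold change). In RF3 none of the 33 peaks was lower or higher at an adjusted p below 0.01 (9.57% of all peaks were lower and 7.11% higher), and the median was 0.084.

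At TP1, before the move, the median differences were larger and RF1 took the opposite side. In RF1, 28 of 33 peaks on chromosome 13 were DARs with higher accessibility than in the other RFs, against 9% of all peaks, and 31 were higher at any fold change (24.2%). The median log2 fold change was 0.75 (range 0.087 to 0.94), against 0.002 over all peaks and -0.033 over all peaks at gene ends. In RF4, 28 of 33 were DARs with lower accessibility, against 1.88% of all peaks, and 30 were lower at any fold change (11.5%), with a median of -0.60 (range -0.84 to 0.027), against -0.13 over all gene ends. For 28 of 33 peaks all 5 RF1 libraries lay above all 20 libraries of the other RFs, which held for 3.65% of all peaks. For 16 of 33 all RF4 libraries lay below all others (2.76% of all peaks). In RF3, 24 peaks were lower at any fold change (3.98% of all peaks) and none was a DAR (0.763%), with a median of -0.27. When libraries within sampling noise were summed, 8 were lower. The medians were 0.13 in RF2 and 0.009 in RF5. With library totals in place of scaling factors, which moved the median of all peaks in RF4 to 0.12, 16 of 33 peaks were DARs with lower accessibility in RF4, and with an offset fitted against abundance 11 were.

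**Figure D2:**
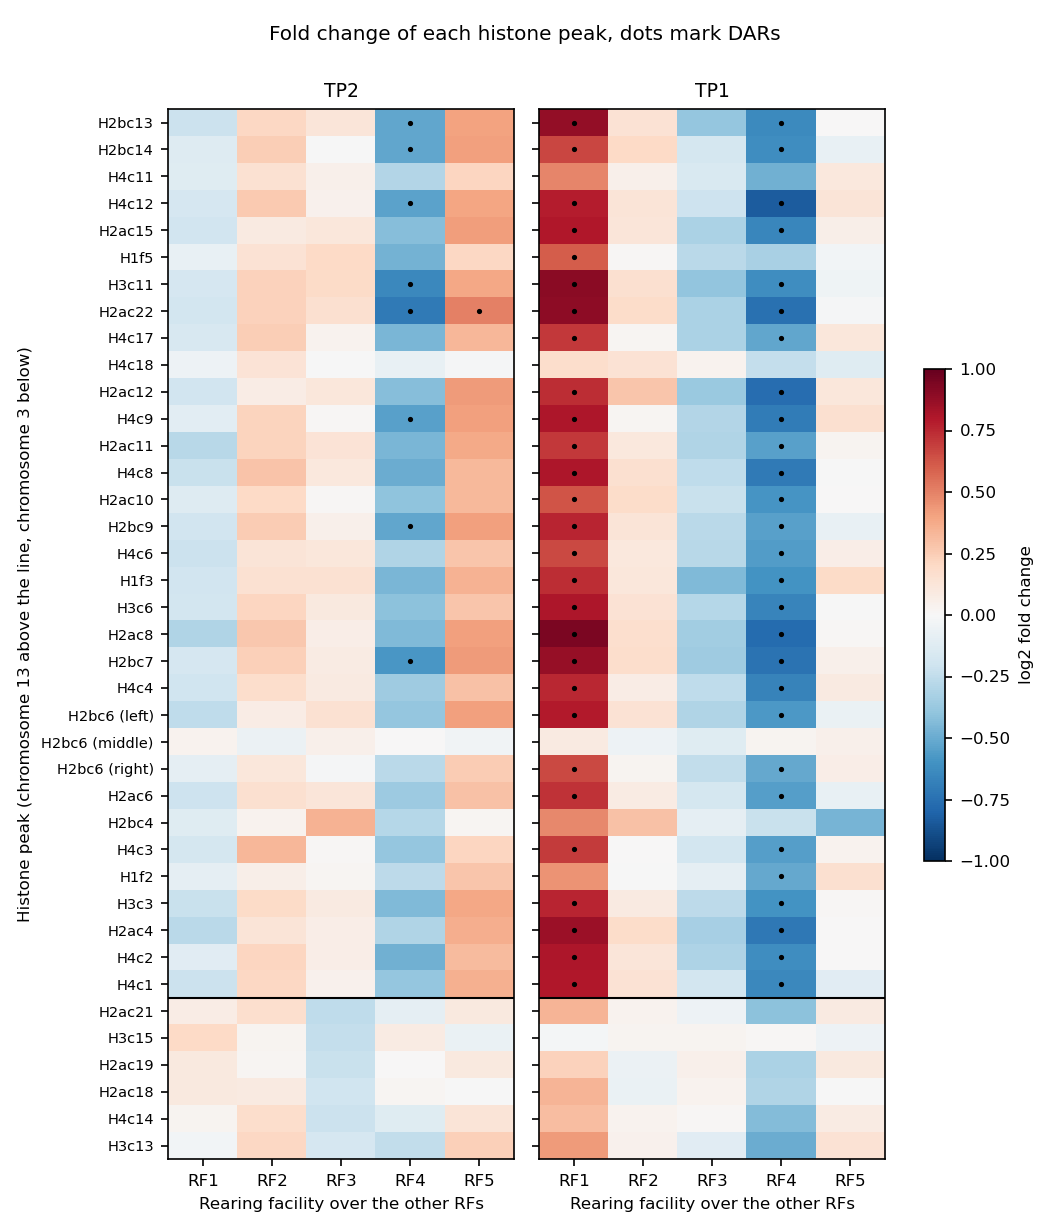
Log2 fold change of each of the 39 histone peaks in each RF against the mean of the other 4, with TP2 left and TP1 right and peaks in genomic order; dots mark DARs. The chromosome 13 peaks had a median of 0.75 in RF1 and -0.60 in RF4 at TP1, and of -0.43 in RF4 and 0.35 in RF5 at TP2.

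The TP1 differences ran through all families of histones. A peak that holds genes of several families is counted in each. Of the peaks with a linker histone H1 gene, 6 of 7 were DARs with higher accessibility in RF1 (median log2 fold change 0.70), of those with H2A 13 of 14 (0.80), with H2B 16 of 18 (0.76), with H3 10 of 10 (0.80) and with H4 10 of 12 (0.73). In RF4, 6 of 7 H1 peaks were DARs with lower accessibility (median -0.55), 13 of 14 H2A peaks (-0.68), 16 of 18 H2B peaks (-0.61), 9 of 10 H3 peaks (-0.63) and 10 of 12 H4 peaks (-0.59). At TP2 the medians in RF4 lay between -0.46 and -0.39 and those in RF5 between 0.28 and 0.41, with H1 peaks nearest to 0 in both. No test of one family against another was made. Of 29 peaks with at least 10 CPM, 27 were DARs in RF1 at TP1 and 27 in RF4, against 1 and 1 of the 4 peaks under 10 CPM.

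Values of single libraries at TP1 show the separation. H2ac8, which shares a divergent promoter with H2bc8, had 35.1, 33.9, 33.7, 33.2 and 42.4 CPM in RF1, against 11.6 to 27.3 CPM in the other RFs. All RF1 libraries were higher, and the log2 fold change of 0.94 ± 0.053 was the largest of the 33 (edgeR, Benjamini-Hochberg adjusted p = 2.95e-21). RF4 had 17.4, 12.9, 11.6, 14.2 and 13.3 CPM, a log2 fold change of -0.77 ± 0.061 (adjusted p = 4.41e-15, edgeR). H2bc7, whose peak includes H2ac7 and H3c4, had the smallest p of the RF test (adjusted p = 3.81e-22, edgeR). It had 41.0, 43.0, 39.2, 45.7 and 52.7 CPM in RF1, against 16.4 to 32.6 CPM in the other RFs, and 21.4, 16.4, 16.6, 19.1 and 17.2 CPM in RF4. Its log2 fold change was 0.87 ± 0.049 in RF1 and -0.74 ± 0.056 in RF4. H2bc13, at the proximal end of the cluster with H2ac13 and H3c10, had 47.0, 43.5, 39.2, 49.2 and 56.3 CPM in RF1 and 22.7, 20.8, 17.8, 20.3 and 19.6 CPM in RF4. In this peak too every RF1 library exceeded every RF4 library, and how many of all peaks separate RF1 from RF4 was not counted.

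The H4 genes with the highest levels behaved likewise. H4c8 had 56.2, 61.9, 60.4, 69.5 and 73.9 CPM in RF1 at TP1, against 24.7 to 47.8 CPM in the other RFs (log2 fold change 0.81 ± 0.046, edgeR with Benjamini-Hochberg adjusted p = 4.18e-21). In RF4 it had 30.6, 26.7, 24.7, 27.7 and 29.0 CPM, against 32.8 to 73.9 CPM in the others (-0.71 ± 0.052, adjusted p = 4.31e-16, edgeR). Neither group overlapped with the rest. H4c1, with H3c1 and H1f1, had 94.7, 89.9, 85.4, 92.8 and 109 CPM in RF1, against 38.5 to 72.5 CPM in the other RFs (0.80 ± 0.045, adjusted p = 4.18e-21, edgeR). H4c4 had 29.5, 32.6, 29.4, 34.9 and 39.1 CPM in RF1 and 15.3, 15.6, 14.8, 15.4 and 14.0 CPM in RF4. Of the promoters printed above, that of H4c8 holds none of the 4 motifs. That of H1f1, under the H4c1 peak with H3c1, holds a CCAAT box and a TATA box. A link between motifs and RF differences was not tested.

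The smallest differences at TP1 were found among peaks of low level, but H4c17, also of low level, was a DAR in RF1. The middle H2bc6 peak, which lies inside the long H2bc6 span away from the other 2, had 4.05, 3.68, 3.84, 4.45 and 4.20 CPM in RF1 at TP1 and 3.86, 4.11, 3.38, 4.60 and 3.66 CPM in RF4. The groups overlapped fully, with log2 fold changes of 0.087 ± 0.083 in RF1 (edgeR, Benjamini-Hochberg adjusted p = 0.373) and 0.027 ± 0.084 in RF4 (adjusted p = 0.848, edgeR). H4c18 had 6.42, 7.08, 5.63, 6.35 and 7 CPM in RF1 and 6.10, 4.67, 4.99, 5.1 and 4.97 CPM in RF4, with log2 fold changes of 0.18 ± 0.071 and -0.24 ± 0.075 against the other RFs (adjusted p = 0.0294 and 0.0119, edgeR). Its near-identical copy H4c17 had 2.71, 3.48, 2.94, 3.46 and 4.08 CPM in RF1 and 1.43, 1.87, 1.74, 1.19 and 2.17 CPM in RF4, and its log2 fold change in RF1 was 0.71 ± 0.099 (adjusted p = 2.53e-08, edgeR).

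**Figure D3:**
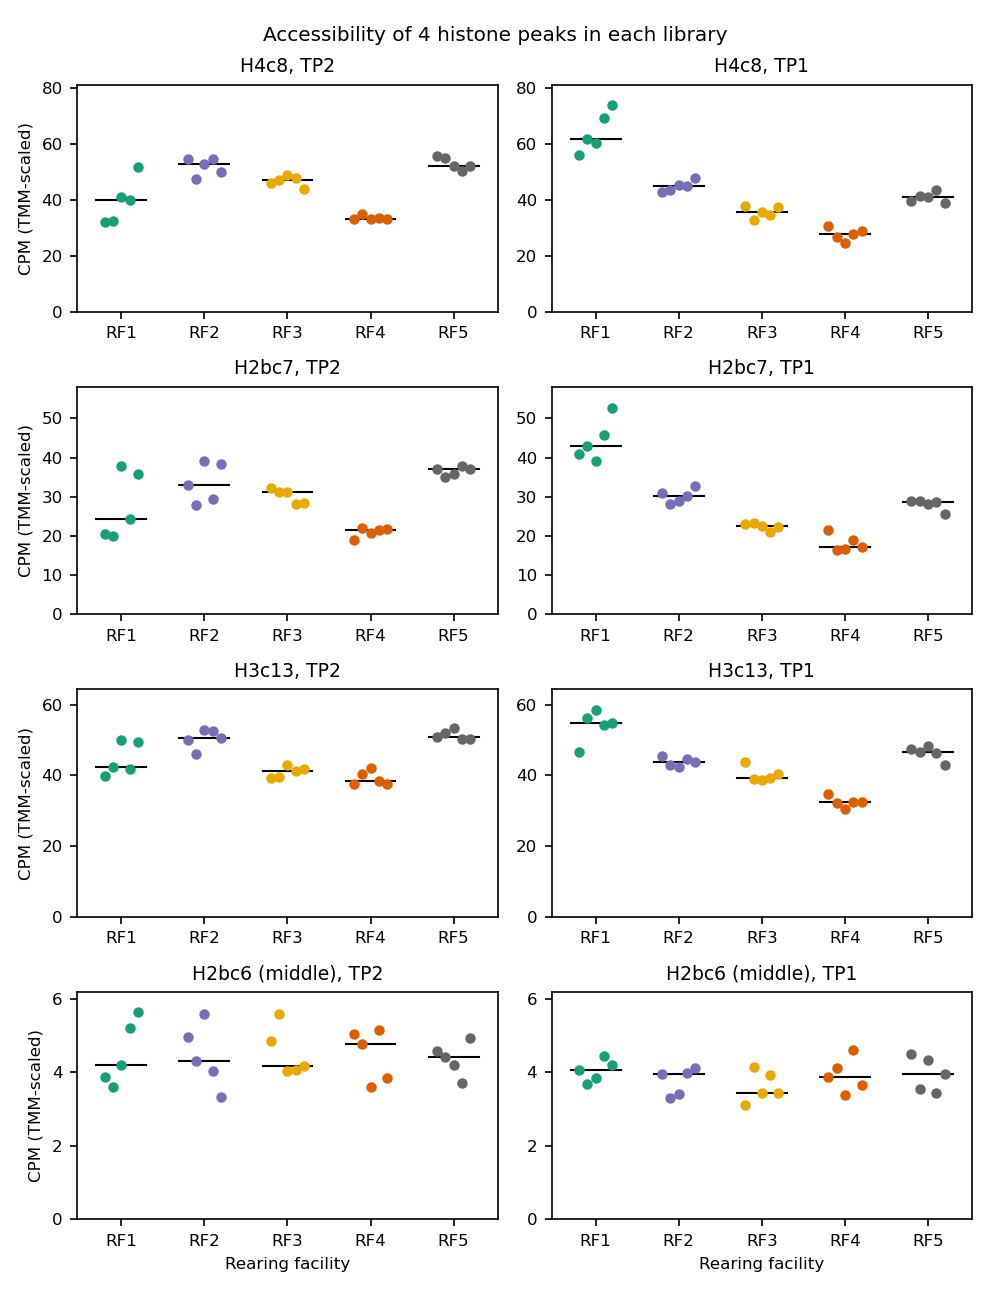
CPM of 4 histone peaks (H4c8, H2bc7, H3c13 and the middle H2bc6 peak) in each library, by RF, with TP2 left and TP1 right. H4c8 reached 56.2 to 73.9 CPM in RF1 at TP1, against 24.7 to 47.8 CPM in the other RFs, while the middle H2bc6 peak lay between 3.38 and 4.60 CPM in RF1 and RF4 at TP1.

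The small cluster on chromosome 3 had smaller median differences than the cluster on chromosome 13, and the 2 clusters were not tested against each other. At TP2 the 6 peaks were lowest in RF3, with a median log2 fold change of -0.22 and 4 of 6 lower at any fold change, against 9.57% of all peaks. The control peaks at gene ends in that bin had a median of -0.18. The count of peaks that depended on the RF at TP2 was 1 with an offset fitted against abundance, against 3 without it. H2ac21, an H2A gene, was the only one of the 6 whose RF3 libraries, at 42.5 to 45.0 CPM, all lay below all others (2.18% of all peaks). Its log2 fold change was -0.25 ± 0.043 (edgeR, Benjamini-Hochberg adjusted p = 6.22e-06). At TP1, 5 of 6 peaks were higher in RF1 at any fold change (24.2% of all peaks), with a median of 0.32, and 5 of 6 lower in RF4 (11.5%), with a median of -0.37, and none was a DAR, H3c13 in RF4 being just short of the threshold before rounding.

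H3c13, an H3 gene next to H2bc18, changed most among the 6. At TP2 it had 50.9, 51.9, 53.3, 50.4 and 50.2 CPM in RF5 (log2 fold change 0.24 ± 0.043, edgeR with Benjamini-Hochberg adjusted p = 0.000139) and 37.5, 40.3, 42.1, 38.4 and 37.7 CPM in RF4 (-0.25 ± 0.045, adjusted p = 5.32e-05, edgeR). At TP1 it had 46.5, 56.3, 58.5, 54.1 and 54.8 CPM in RF1, against 30.4 to 48.2 CPM in the other RFs (0.42 ± 0.045, adjusted p = 1.82e-11, edgeR), and 34.7, 32.2, 30.4, 32.6 and 32.4 CPM in RF4, against 38.7 to 58.5 CPM (-0.50 ± 0.049, adjusted p = 3.16e-12, edgeR). All RF4 libraries were lower than all others, while 1 RF1 library overlapped with the rest. H2ac21 had 55.8, 61.4, 67.0, 61.6 and 55.0 CPM in RF1 and 41.7, 40.8, 37.8, 38.4 and 39.3 CPM in RF4 at TP1. H4c14, an H4 gene, had 45.0, 53.4, 55.8, 51.5 and 51.0 CPM in RF1 and 36.8, 33.1, 34.4, 33.5 and 32.2 CPM in RF4. For H2ac21 all RF1 libraries lay above all others, and for H3c13, H2ac21 and H4c14 all RF4 libraries lay below all others. H2ac18 had 18.5, 21.4, 22.2, 19.8 and 17.9 CPM in RF1, and 14.9, 13.8, 14.4, 12.7 and 14.0 CPM in RF4. H2ac19 had 11.2, 13.4, 12.9, 13.2 and 12 CPM in RF1, and 9.87, 8.02, 9.20, 9.17 and 9.85 CPM in RF4. In both near-identical H2A genes RF1 was higher than RF4 in every library, which was not counted over all peaks. H3c15 had 7.27, 6.49, 6.74, 6.50 and 5.14 CPM in RF1 and 6.88, 6.08, 6.50, 6.93 and 6.32 CPM in RF4, which overlapped, with log2 fold changes of -0.019 ± 0.064 and 0.010 ± 0.065 (adjusted p = 0.815 and 0.933, edgeR).

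The control peaks of the chromosome 13 bins moved in the same direction as the histone peaks. In RF1 at TP1, 72 of 111 control peaks were DARs with higher accessibility, with a median log2 fold change of 0.70, against 28 of 33 histone peaks with a median of 0.75. In RF4, 40 of 111 control peaks were DARs with lower accessibility, with a median of -0.41, against -0.60 for the histone peaks. The 25 control peaks at the ends of other genes had medians of 0.42 in RF1 and -0.29 in RF4. At TP2 in RF4 the histone and control medians were -0.43 and -0.41, and in RF5 they were 0.35 and 0.20. The pattern held in each of the 3 bins at TP1. In RF1 the histone medians were 0.75, 0.74 and 0.76 in the bins starting at 21, 22 and 23 Mb, and the control medians were 0.71, 0.68 and 0.56. On chromosome 3 the histone medians were 0.32 in RF1 and -0.37 in RF4 at TP1, against -0.074 and 0.029 for the control peaks. The 28 control peaks at gene ends there had medians of 0.014 in RF1 and -0.16 in RF4. The summed level of the control peaks on chromosome 3 was 732 to 753 CPM in RF4 at TP1, below every library of the other RFs (771 to 879 CPM).

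**Figure D4:**
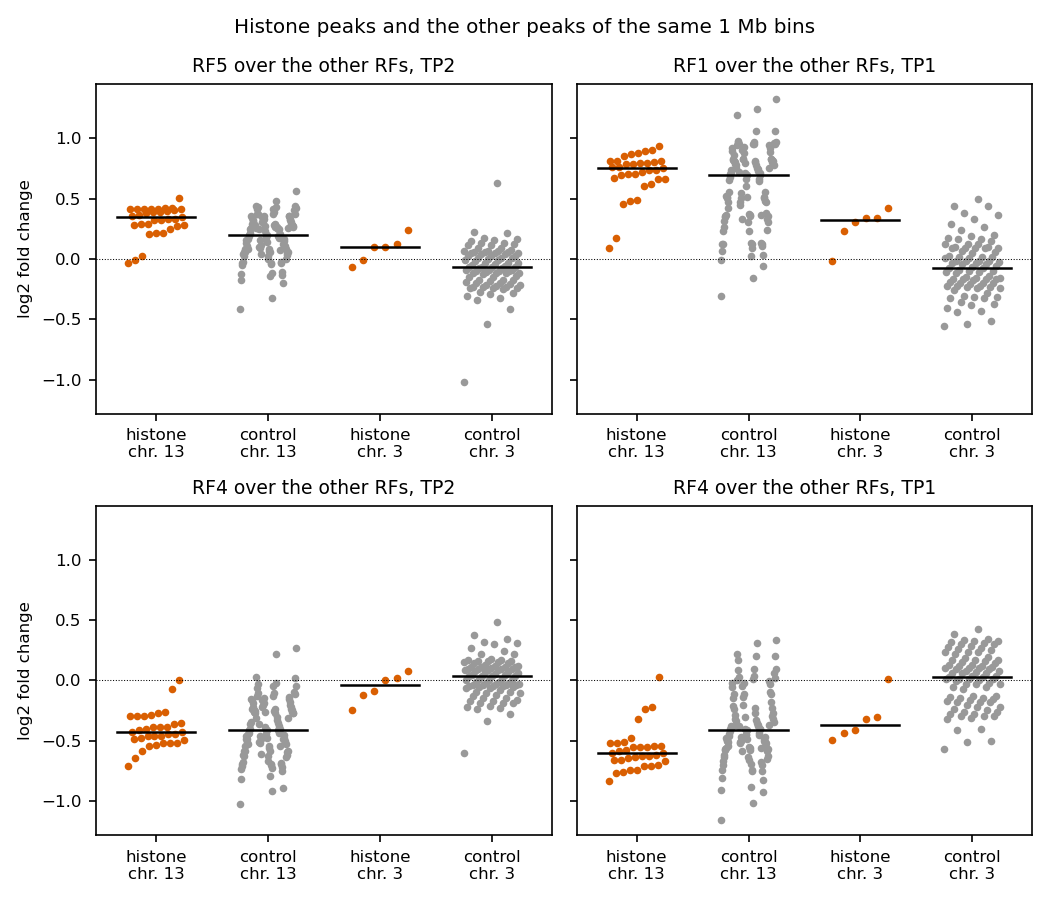
Log2 fold changes of histone and control peaks of chromosomes 13 and 3 against the other RFs, for RF5 at TP2 and RF1 at TP1 (top) and for RF4 at TP2 and at TP1 (bottom); black bars mark medians. In RF1 at TP1 the medians were 0.75 for histone and 0.70 for control peaks on chromosome 13, and 0.32 and -0.074 on chromosome 3.

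Whether histone peaks differed by more than their surroundings was tested with an offset for the mean level of the control peaks in each 1 Mb bin. At TP2, 15 of 33 peaks on chromosome 13 and 3 of 6 on chromosome 3 depended on the RF relative to their bin (edgeR, Benjamini-Hochberg adjusted p below 0.01), against 9.12% of all peaks and 26.4% of all peaks at gene ends. The chromosome 13 count was 24 without RF1 replicates 3 and 5 and RF2 replicate 5, 6 with libraries within sampling noise summed, 6 without replicate 1 of every RF, 8 without replicate 2 and 6 without replicate 4. The chromosome 3 count was 1 with libraries summed. At TP1, 31 of 33 and 5 of 6 did, against 45.6% of all peaks and 71.0% at gene ends. Of the control peaks, 22 of 111 and 13 of 90 passed at TP2, and 86 of 111 and 48 of 90 at TP1.

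Relative to their bins the differences on chromosome 13 were smaller. In RF5 at TP2 the median was 0.15 and 11 of 33 peaks were higher at any fold change, against 1.41% of all peaks. In RF4 at TP2 the median was -0.057, and only H2ac22 was lower (-0.32 ± 0.064, edgeR with Benjamini-Hochberg adjusted p = 0.000867; 0.757% of all peaks). In RF1 at TP1 the median log2 fold change was 0.18, with 23 of 33 peaks higher at any fold change and 3 lower, against 15.6% and 9.33% of all peaks. In RF4 it was -0.24, with 27 lower and 1 higher, against 13% and 7.58%. None of the 33 was a DAR on this scale in any RF set against the others at either time point. Between pairs of RFs, 1 of 33 was a DAR relative to its bin at TP2 and 9 at TP1, against 3.38% and 20.3% of all peaks. At TP2 it was H2ac22, lower in RF4 over RF5 (-0.51 ± 0.076, adjusted p = 1.64e-06, edgeR; 0.144% of all peaks). At TP1 RF1 over RF4 gave H2ac8, H2bc7, H2ac4 and H4c8 higher (5.73% of all peaks) and the middle H2bc6 peak and H4c18 lower (3.79%), RF4 over RF5 gave H4c12, H2ac12 and H4c9 lower (2.77%), and RF1 over RF3 gave H4c18 lower (1.85%). The medians relative to the bin in RF1 at TP1 were 0.37 over RF4, 0.22 over RF2, 0.14 over RF3 and 0.022 over RF5. The ratio of the histone sum to the control sum on chromosome 13 had a median of 0.799 in RF1 (range 0.759 to 0.860) at TP1, against 0.847 in RF5, 0.804 in RF3, 0.741 in RF2 and 0.71 in RF4. H2ac8 had the largest values, 0.41 ± 0.038 in RF1 (adjusted p = 4.13e-19, edgeR) and -0.44 ± 0.044 in RF4 (adjusted p = 1.42e-17, edgeR). The middle H2bc6 peak took the other direction, lower in RF1, with a log2 fold change of -0.45 ± 0.079 (adjusted p = 8.23e-07, edgeR) and higher in RF4 by 0.36 ± 0.081 (adjusted p = 0.000155, edgeR), although its CPM values in the 2 groups overlapped. H4c18 was also lower in RF1, with a log2 fold change of -0.46 ± 0.065 (adjusted p = 2.67e-10, edgeR).

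On chromosome 3 the values relative to the bin were as large as before. At TP1 the median was 0.38 in RF1, with 5 of 6 peaks higher, and -0.37 in RF4, with 5 of 6 lower. H3c13 had the smallest p of all 39 peaks (adjusted p = 1.42e-39 for the RF test relative to the bin, edgeR with Benjamini-Hochberg adjustment). It was higher in RF1 by 0.48 ± 0.034 (adjusted p = 4.83e-30, edgeR) and lower in RF4, with a log2 fold change of -0.51 ± 0.037 (adjusted p = 1.98e-28, edgeR), the only DAR of the 39 relative to its bin when each RF was set against the others (1.48% of all peaks). Between pairs, 4 of the 6 peaks were DARs relative to the bin at TP1 and 0 at TP2, namely H3c13, H2ac21, H4c14 and H2ac18 in RF1 over RF4, and H3c13 also in RF1 over RF3 (1.47% of all peaks). At TP2 H3c13 was higher in RF5 by 0.30 ± 0.043 (adjusted p = 2.62e-06, edgeR) and lower in RF4, with a log2 fold change of -0.27 ± 0.046 (adjusted p = 6.13e-05, edgeR).

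**Figure D5:**
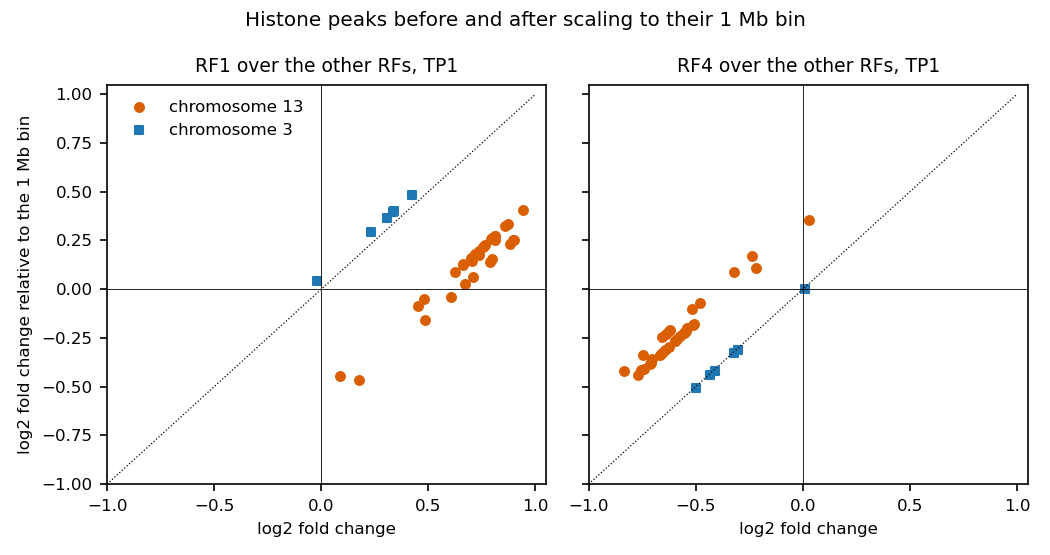
Log2 fold change of each histone peak against the other RFs (horizontal) and the same relative to its 1 Mb bin (vertical) at TP1, for RF1 (left) and RF4 (right); circles are chromosome 13, squares chromosome 3, and the dotted line marks equal values. Chromosome 13 peaks lay nearer to 0 on the vertical axis, with medians of 0.75 and 0.18 in RF1, while chromosome 3 peaks stayed near it, with medians of 0.32 and 0.38.

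Between pairs of RFs, 25 of 33 peaks on chromosome 13 and none on chromosome 3 were DARs in at least 1 of the 10 pairs at TP2, against 21% of all peaks, and 31 of 33 and 4 of 6 at TP1, against 38.6%. At TP2 the pair with most was RF4 over RF5, with 24 peaks lower and a median of -0.64 (2.45% of all peaks). H2ac22 had the largest value, -0.97 ± 0.109 (edgeR, Benjamini-Hochberg adjusted p = 1.02e-07). RF2 over RF4 gave 13 higher (0.720% of all peaks), RF1 over RF5 gave 5 lower (2.44%) and RF3 over RF4 gave 5 higher (6.62%), and the other 6 pairs gave none. At TP1, RF1 over RF4 gave 31 peaks higher with a median of 1.09 (11.4% of all peaks), led by H2ac8 with 1.37 ± 0.072 (adjusted p = 1.72e-22, edgeR). RF1 also gave 29 higher over RF3 (10.6% of all peaks), 23 over RF5 (12.9%) and 21 over RF2 (2.74%), the other RF of its institution, with medians of 0.82, 0.59 and 0.52. RF2 over RF4 gave 24 higher (1.70%), and RF4 over RF5 gave 16 lower (2.70%). The remaining 4 pairs gave 1 each, H2ac12 higher in RF2 over RF3 (0.944% of all peaks), H2bc4 higher in RF2 over RF5 (3.28%), H4c12 higher in RF3 over RF4 (1.61%), and H1f3 lower in RF3 over RF5 (1.94%). The 4 peaks of chromosome 3 were DARs in RF1 over RF4, namely H3c13 (0.74 ± 0.060), H2ac21 (0.60 ± 0.057), H4c14 (0.59 ± 0.058) and H2ac18 (0.51 ± 0.067).

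RF differences of the histone peaks were not the same at the 2 time points. An interaction of RF and time point was found in 31 of 33 peaks on chromosome 13 and 5 of 6 on chromosome 3 (edgeR, Benjamini-Hochberg adjusted p below 0.01), against 54.4% of all peaks, and in 92 of 111 and 40 of 90 control peaks. The smallest p belonged to H2ac11 (adjusted p = 1.03e-16), H2ac15 (1.07e-16) and H4c8 (1.35e-16). H2ac11 had 18.5 to 28.9 CPM in RF1 at TP2 and 30 to 38 CPM in RF1 at TP1, while RF4 had 19.8 to 21.2 CPM at TP2 and 14.8 to 20.7 CPM at TP1. H2ac15, which shares its peak with H2bc15, had 15.2, 14.4, 18.6, 16.1 and 22.8 CPM in RF1 at TP2 and 28.7, 27, 25.2, 28.3 and 32.6 CPM at TP1. RF1 was thus the highest RF at TP1 and among the lower ones at TP2 in these peaks, whereas RF4 was low at both. H3c15, H4c18 and the middle H2bc6 peak showed no interaction at this threshold.

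Peaks at other genes of histone biology also differed between RFs, and the lists were not tested against the histone peaks. A list of 21 regulators of histone transcription and mRNA processing, such as Npat, depended on the RF in 19 at TP2 and 21 at TP1. Of 15 histone genes outside both clusters 12 and 15 did, and of 13 histone chaperones 11 and 13. The shares were 30.8% and 59.1% of all peaks, and 55.1% and 80.3% of all peaks at gene ends. The 15 histone genes are not variants alone. Beside variants such as H2az1 they include H4f16 as well as H2aw, H2bu2 and H3f4, which lie together on chromosome 11. In RF1 at TP1 the median was 0.064 for regulators (8 higher and 5 lower at any fold change). It was 0.20 for the 15 histone genes (8 higher and 0 lower) and 0.11 for chaperones (6 higher and 2 lower). The chromosome 13 histone peaks had a median of 0.75. Of all peaks, 24.2% were higher and 22.4% lower in that comparison. The highest in each were Ccne2 (0.48), a cyclin of the start of replication, H2az1 (0.63), an H2A variant, and Atrx (0.66), a chromatin remodeller that works with the H3 chaperone Daxx (-0.24). In RF4 the medians were -0.28, -0.35 and -0.25, with 18 of 21, 14 of 15 and 11 of 13 lower at any fold change and 0 higher, against 11.5% and 6.58% of all peaks. The lowest were Pou2f1 (-0.52), H2az1 (-0.57) and Asf1a (-0.61), a chaperone of H3 and H4. In RF5 at TP1 the medians were 0.14, 0.12 and 0.066, against 0.009 for the chromosome 13 histone peaks. At TP2 the medians of the 3 lists lay between -0.048 and -0.010 in RF4 and between 0.073 and 0.089 in RF5. In RF3 at TP2, where none of the 33 histone peaks passed and their median was 0.084, the lists had medians of -0.26, -0.22 and -0.22. There 13 of 21 regulators, 10 of the 15 histone genes and 8 of 13 chaperones were lower and 0 higher at any fold change. Of all peaks 9.57% were lower and 7.11% higher, and all peaks at gene ends had a median of -0.15. The lowest was H3f3b (-0.53), a gene for the H3 variant H3.3.

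Peaks at marker genes moved with the RFs as well, those of glia included. In RF1 at TP1, 6 of 8 neuronal genes were higher and 1 lower at any fold change (median 0.34), and 4 of 7 genes of dividing cells were higher and 2 lower (0.20), against 24.2% and 22.4% of all peaks. Of the glial genes, 1 of 4 astrocyte genes (Slc1a3, 0.57) and 1 of 4 genes of the oligodendrocyte lineage (Mbp, 0.31) were higher, and of 3 microglial genes 1 was higher and 2 lower. In RF4 at TP1, 5 of 8 neuronal genes (median -0.36) and 3 of 7 genes of dividing cells (-0.17) were lower. So were 3 of 4 astrocyte genes (-0.35) and 3 of 4 genes of the oligodendrocyte lineage (-0.39), against 11.5% of all peaks. Aldh1l1, an astrocyte enzyme, was at -1.02. The microglial gene Csf1r was higher (0.305), against 6.58% of all peaks, and no microglial gene was lower. In RF5 at TP2, 3 of 8 neuronal genes were higher and 1 lower (median 0.11), against 2.46% and 2.24% of all peaks. The astrocyte genes Gfap (-0.86) and Aldh1l1 (-0.825) and the oligodendrocyte lineage genes Olig2 (-0.99) and Olig1 (-0.49) were lower. Mbp, also of the oligodendrocyte lineage, was higher (0.245). In RF4 at TP2 the medians were -0.097 for neuronal, -0.092 for astrocyte and -0.15 for oligodendrocyte lineage genes. Among the astrocyte genes, Gfap was higher (0.485) and Slc1a3 lower (-0.394) at any fold change. The neuronal sum ranged from 322 to 347 CPM in RF1 and from 248 to 252 CPM in RF4 at TP1, and from 291 to 302 CPM in RF5 and 268 to 287 CPM in RF4 at TP2. The sum over dividing-cell genes ranged from 133 to 173 CPM in RF1 and from 114 to 122 CPM in RF4 at TP1, and from 127 to 134 CPM in RF5 and 113 to 120 CPM in RF4 at TP2. The part of these markers in the histone differences was not tested.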

How the data were processed

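ATAC-seq libraries were made from sorted NeuN-positive nuclei of the ventral hippocampus, 5 mice per RF and time point. The authors trimmed reads, aligned them with Bowtie2 to GRCm38, kept concordant unique alignments, marked duplicates with Picard 1.140, called broad peaks in each library with MACS2 2.1.4 and merged them. They deposited raw counts per merged peak, which were used here, together with peak lists whose -log10 q-values were deposited per library and served only to count the libraries in which a peak was called. A second deposited table was identical to the raw counts and was not used. In the merged peak list the authors deposited a count of groups per peak. No transposase shift is visible in counts per peak, and peaks were counted over their full width.

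Counts were tested within each time point by edgeR 4.0.16 (R 4.3.3, limma 3.58.1; robust quasi-likelihood fit, trimmed mean of M values, filterByExpr) with RF and replicate number as factors, for all peaks at once, with Benjamini-Hochberg adjustment at 0.01. DARs also had to differ by 0.5 or more on the log2 scale in either direction. The fit relative to the bin had as offset the mean log2 CPM (prior count 2) of at least 10 control peaks of the 1 Mb bin, the own peak left out. DESeq2 1.42.0 was an alternative, as were other size factors, no filter, no replicate block, left-out libraries, summed libraries, a loess offset and other bins. Tables and figures used Python 3.11.15, pandas 2.3.3, numpy 2.4.6 and matplotlib 3.10.9. Counts for about 20000 peaks were also simulated, with 1 negative binomial dispersion of 0.01 for all peaks, no replicate effect and changes in RF1 only. On these the RF test recovered 63 of 100 peaks changed by a log2 fold change of 0.5 at TP2 and 78 at TP1, with 1 and 5 false calls. At a log2 fold change of 1 it recovered 100 of 100 at both. The simulation held no deviating libraries, so recovery in the real libraries may differ.

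Replicate numbers were taken as the sorting batch described in the study's methods, which the labels do not state. At TP2 the order of the titles departs from the replicate numbers in places. T1, T2, T3 and T5 are replicate 1, but T4 is RF2 replicate 5 and T26 is RF5 replicate 1. Results with the replicate block or without a replicate number rest on this assignment. Deviations of same-numbered libraries from their group means correlated at a mean r of 0.00146 at TP2 (1 of 50 pairs over 0.1) and 0.0583 at TP1 (13 of 50). Libraries with different numbers were not compared in this way, so the check cannot show whether the numbers pair libraries. None of 100 pairs of libraries of 1 group agreed within plain binomial variance, the lowest ratio to it being 1.93. Counts of 2 (4982) outnumbered counts of 1 (1912), so plain binomial variance may be too strict a scale for these counts. Within 2 times the binomial variance 17 pairs of 1 group and 6 pairs of different groups agreed. All 50 libraries were kept apart in the main fits. Summing those that agreed was an alternative, which left 18 libraries at TP2 and 21 at TP1. P-values measure the spread between mice of 1 RF.

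Members, lists and tests were chosen with earlier results of these data known. Library values are printed for the 3 peaks per cluster with the smallest p of the RF test at each time point, the 3 with the highest and lowest level per kb, the 3 with the smallest p of the interaction, and up to 10 called relative to their bin. H2ac22, H2bc4, H1f3, H4c12 and other peaks outside this rule are named after their values were seen. Promoters were matched by symbol, and 5 genes had none.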

Additional observations from a re-analysis of the deposited data

Results flagged for a closer look

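Within groups of 5 libraries, 1 library stood far from the other 4 in 5 of the 69 groups looked at, where chance gives about 1 in 20. The chromosome 13 sum of RF2 replicate 5 at TP2 was 888.23 CPM, above 778 to 803 CPM in the other 4 libraries. The chromosome 3 sum of replicate 1 was 176.28 CPM in RF3 at TP1 and 144.88 CPM in RF4 at TP1, in both the highest of its group. H2ac8 had 42.4 CPM in RF1 replicate 5 at TP1, and H4c8 had 35 CPM in RF4 replicate 2 at TP2.

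RF differences differed between the time points, by the test of the interaction itself (edgeR, Benjamini-Hochberg adjusted), in 31 peaks on chromosome 13 and 5 on chromosome 3. The smallest adjusted p were 1.03e-16 for H2ac11, 1.07e-16 for H2ac15 and 1.35e-16 for H4c8. Time points and sequencing batches cannot be told apart.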

How the results depend on the processing

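Of 720 alternative values of 58 single results, 685 kept their direction and their side of the threshold. Of the rest, 12 passed it newly, 23 no longer passed and 0 reversed. The 58 belong to peaks described in the text, many of which were picked for a small p in the same data. Few reversals are likely in values picked in this way, so these counts do not measure the stability of other results. Without RF1 replicates 3 and 5 and RF2 replicate 5 at TP2, the chromosome 13 counts were 24 relative to the bin (15 with all libraries), 2 DARs lower in RF4 (8), 4 DARs higher in RF5 (1) and 29 lower in RF1 at any fold change (4). With libraries within sampling noise summed they were 6 relative to the bin at TP2 (1 on chromosome 3, 3 with all libraries), 0 DARs higher in RF5, 8 lower in RF3 at TP1 (24), 1 lower in RF1, 16 lower in RF4 (28) and 0 higher in RF5 (26) at any fold change at TP2. With library totals only, 16 peaks were DARs lower in RF4 at TP1 (28), 0 higher in RF5 and 12 lower in RF1 at TP2. The loess offset on abundance gave 9 relative to the bin at TP2, 1 on chromosome 3 depending on RF at TP2 (3), 11 DARs lower in RF4 at TP1, 0 DARs higher in RF5 at TP2 and 16 lower in RF1 at TP2. Summed counts of control peaks gave 9 relative to the bin at TP2, and DESeq2 gave 1 lower in RF1 at TP2. Without the replicate block, 2 peaks were lower in RF1 at TP2 at any fold change, and the block changed no other count by over 1.5 times. The causes were not tested.

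Leaving out each replicate number in turn gave 6 to 19 relative to the bin at TP2, 3 to 13 DARs lower in RF4 at TP2 (3 without replicate 5, 13 without replicate 2), 22 to 28 at TP1, 0 to 1 DARs higher in RF5, and at any fold change at TP2 0 to 27 lower in RF1, 26 to 29 lower in RF4 and 15 to 29 higher in RF5, and 19 to 25 lower in RF3 at TP1. The count of DARs higher in RF1 at TP1 stayed between 28 and 30. A GC correction was not run. TP2 libraries were shallower, and relative to the bin the simulated recovery at a log2 fold change of 0.5 was 54 of 100 at TP2 and 77 at TP1, and 15 of 100 for the interaction.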
